A study of Mus musculus with 24 samples.

Results

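The TNF superfamily ligands Tnf, Ltb, Tnfsf4, Tnfsf8, Tnfsf9, Tnfsf10, Tnfsf13b, Tnfsf14 and Tnfsf15 and the receptor Cd40 were followed in bone marrow-derived macrophages (BMDMs) that had or lacked the aryl hydrocarbon receptor (AhR), a ligand-activated transcription factor. They were taken by name, with earlier results of these data known, as 10 of the 55421 genes in the count table. All 10 passed the filter on low counts. RNA sequencing covered 24 libraries in 4 groups of 6: unstimulated wildtype (C57BL/6J), unstimulated AhR-deficient (AhR KO/KO, the germline Ahr tm1Bra allele), and both genotypes after 24 h of LPS, a ligand of the receptor TLR4, at 97 EU/ml from day 6. All cultures had been grown with GM-CSF at 10 ng/ml and TGF-β at 2 ng/ml, which makes them alveolar-like, and the treatment protocol ends with 5 µM of the Ca2+ ionophore A23187 for 10 min. The mice were of both sexes and between 7 and 14 weeks old, matched for age and sex. Every cell of the AhR-deficient animals carries the allele and so lacks AhR, the allele lies in 129-derived sequence, and wildtype and AhR-deficient mice are separate lines. None of the 10 genes lies on chromosome 12, where Ahr lies. The libraries of a group come from separate animals of a single experiment, and nothing in the labels ties a stimulated culture to an unstimulated one. Libraries are named here by their numbers, 17 to 40, which form 3 runs of 8 consecutive numbers with 2 libraries of each group per run. The labels do not call these runs batches.

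Ligands of the TNF superfamily are mostly made as trimers on the cell surface, and several are cut off and act at a distance. They bind receptors of the TNF receptor superfamily, many of which carry a death domain, recruit TRAF adaptors that lead to NF-kB, or do both. Macrophages stimulated through TLR4 are a main source of TNF, and CD40, a receptor on macrophages, dendritic cells and B cells, receives the signal of its ligand on activated T cells. Many of the other ligands are costimulators: OX40L (Tnfsf4), CD30L (Tnfsf8), CD137L (Tnfsf9), LIGHT (Tnfsf14) and TL1A (Tnfsf15) act on lymphocytes, TRAIL (Tnfsf10) triggers apoptosis, and BAFF (Tnfsf13b) keeps B cells alive. Lymphotoxin-β (Ltb) holds lymphotoxin-α (Lta) at the cell membrane and signals through Ltbr.

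Some of these genes are neighbours, and the sequences before their starts are shown because neighbouring genes gave different responses to LPS or to the loss of AhR. Ltb (chr17:35194439-35196320, plus strand) and Tnf (chr17:35199381-35202007, minus strand) are 3060 bases apart in mm10 with no gene between them, and Lta follows 1157 bases beyond Tnf. Tnfsf15 (chr4:63727084-63745113, minus strand) and Tnfsf8 (chr4:63831308-63861347, minus strand) are 86.2 kb apart with no gene wholly between them. Tnfsf9 (chr17:57105325-57107757, plus strand) and Tnfsf14 (chr17:57189492-57194177, minus strand) flank Cd70. RefSeq windows on GRCm38.p6 (the assembly of mm10) were given for 7 of the 10 genes and searched over the 250 bases before the RefSeq start, on both strands. The AhR core motif, searched as GCGTG and its reverse complement, was in 1 of the 7, that of Tnfsf8, where the reverse complement begins 74 bases before the start, and in 28.3% of 32536 distinct windows of that length. The kappaB motif, the site of NF-kB, was in 1 of the 7, that of Ltb, 87 bases before the start, and in 3.92% of all windows. The 2 motifs overlapped in none of these 7 genes' windows, and a match describes letters only. The lines hold the bases before the gene as GENCODE M21 annotates it, 5′ to 3′ on the strand of the gene, with the kappaB match of Ltb and the AhR core of Tnfsf8 in capitals. They cover chr17:35194257-35194438 for Ltb, chr17:35202008-35202257 for Tnf, chr4:63861348-63861534 for Tnfsf8 and chr4:63745114-63745309 for Tnfsf15.
Ltb: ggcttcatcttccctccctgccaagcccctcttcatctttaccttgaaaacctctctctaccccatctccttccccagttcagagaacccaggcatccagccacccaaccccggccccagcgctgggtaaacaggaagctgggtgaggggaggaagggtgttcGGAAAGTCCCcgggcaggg
Tnf: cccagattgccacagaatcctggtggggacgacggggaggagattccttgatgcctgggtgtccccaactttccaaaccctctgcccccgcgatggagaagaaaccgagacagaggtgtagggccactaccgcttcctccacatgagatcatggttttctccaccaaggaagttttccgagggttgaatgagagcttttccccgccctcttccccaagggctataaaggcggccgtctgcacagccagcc
Tnfsf8: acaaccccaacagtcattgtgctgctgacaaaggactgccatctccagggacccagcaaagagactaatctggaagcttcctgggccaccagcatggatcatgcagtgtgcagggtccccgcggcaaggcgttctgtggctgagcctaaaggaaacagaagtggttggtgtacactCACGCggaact
Tnfsf15: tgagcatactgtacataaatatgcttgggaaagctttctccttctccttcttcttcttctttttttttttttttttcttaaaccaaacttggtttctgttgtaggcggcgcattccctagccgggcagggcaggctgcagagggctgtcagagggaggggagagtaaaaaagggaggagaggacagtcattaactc

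Library totals ran from 45106052 to 76992663 counted fragments. Ahr itself was counted over the whole gene, also outside the part the allele removes, and its mean level in the AhR-deficient BMDMs was 7.42 CPM without stimulation and 43.1 CPM after LPS against 28.3 and 16.8 CPM in wildtype, so this count does not check the labels. Ahrr, a target gene of AhR, was between 13.3 and 96.6 CPM in the 12 wildtype libraries and between 0 and 1.05 CPM in the 12 AhR-deficient libraries. Regressed on log2 gene length, log2 CPM had slopes from 0.136 to 0.741 in single libraries, and these overlapped between the groups. Each of the 10 macrophage markers had counts in every group, with a median summed level of 17881 and 29670 CPM in unstimulated wildtype and AhR-deficient BMDMs and of 16798 and 18380 CPM after LPS. Lyz2 made up most of this sum (mean 17796, 26479, 14357 and 13691 CPM in the same order), and of the 10 markers 1 was called higher by genotype in each state, while LPS raised 2 and lowered 2 in wildtype and raised 3 and lowered 2 in AhR-deficient BMDMs. Markers of dendritic cells moved with genotype: their summed level was 59.4 to 196 CPM in unstimulated wildtype and 10.1 to 17.9 CPM in unstimulated AhR-deficient BMDMs, and 596 to 2469 CPM against 103 to 902 CPM after LPS, where Ccr7 carried most of it (mean 1358 and 319 CPM). Of the 8 such markers tested, 6 were lower and 1 higher in AhR-deficient BMDMs without stimulation and 7 were lower after LPS, and Cd207 was at 0 in the AhR-deficient group after LPS. Neutrophil markers had a median sum of 465 and 62.7 CPM without stimulation and of 161 and 31.8 CPM after LPS, with 6 and 4 of the 6 tested lower in AhR-deficient BMDMs. Of the 5 mast cell markers tested, 2 were lower in AhR-deficient BMDMs in each state (median log2 -1.10 and -1.21), with a summed level of 3.84 to 19.4 CPM in wildtype against 1.44 to 3.62 CPM without stimulation and of 319 to 491 CPM against 531 to 830 CPM after LPS. Nearly all of the latter sum was Hdc (mean 411 and 648 CPM), while Cpa3 had means of 9.51 and 2.11 CPM and Ms4a2 of 1.63 and 0.414 CPM after LPS. Of the 2 NK cell markers tested, 1 was higher after LPS, and their sum lay between 0.330 and 8.89 CPM over all libraries. The summed T cell markers lay between 0.340 and 5.80 CPM and those of B cells between 0 and 0.347 CPM in all libraries. With LPS 4 dendritic cell markers were higher and 2 lower in wildtype and 2 higher and 1 lower in AhR-deficient BMDMs, 3 neutrophil markers were lower in each genotype (median log2 -1.74 and -1.37 over the 6 tested), and 3 and 2 mast cell markers were higher. Of the 2 T cell markers tested 1 was higher with LPS in wildtype and 2 in AhR-deficient BMDMs, and of the 2 NK cell markers 1 was higher and 1 lower in wildtype and 1 higher in AhR-deficient BMDMs. The part of other cell types in the results, by genotype or with LPS, was not tested, and in bulk libraries fewer cells of a type and less RNA per cell cannot be told apart.

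Loss of AhR went with changes in both directions among these 10 genes, before stimulation and after it. Without stimulation Ltb, Cd40, Tnfsf8 and Tnfsf9 were lower in AhR-deficient BMDMs (4 genes, where 3.57% of all 16593 tested genes were called lower) and Tnfsf15 was higher (1 gene, where 0.916% were), 5 of 10 called where the share of all tested genes was 4.48%. After LPS Tnfsf8 and Tnfsf15 were higher and Ltb and Tnfsf14 were lower, 4 of 10 called (8.36% of all genes), with 2 higher (2.17% of all genes) and 2 lower (6.19%). Ltb, Tnfsf8 and Tnfsf15 were called in both states, as were 2.59% of all genes. The libraries of the genotypes did not overlap for 5 of the 10 genes without stimulation and for 2 after LPS, beside 5.15% and 7.11% of all genes. A gene was called at an adjusted p of at most 0.05 (edgeR's quasi-likelihood test with Benjamini-Hochberg adjustment over all tested genes) and a fold change of at least 2. The median log2 fold change of the 10 genes, AhR-deficient over wildtype, was -0.93 without stimulation and 0.60 after LPS, beside -0.01 and -0.05 over all tested genes. LPS changed 9 of the 10 in wildtype, 6 higher and 3 lower (24.9% of all genes were called, 13.2% higher and 11.8% lower), and 9 of the 10 in AhR-deficient BMDMs, 7 higher and 2 lower (30.8%, with 15.1% higher and 15.7% lower). The same 9 genes were called in both genotypes, as were 20.6% of all genes, and 7 of the 10 did not overlap between stimulated and unstimulated libraries in each genotype, beside 22.4% and 28.5% of all genes. The change with LPS differed by genotype in Tnf, Tnfsf8, Tnfsf9 and Cd40, 4 of 10 against 4.30% of all genes at an adjusted p of at most 0.05 for the interaction. In all 4 the AhR-deficient cells had the more positive change, as in 1.95% of all genes, where 2.34% had the more negative one. Each called difference had the same sign within all 3 runs, except the interaction of Tnf. Most dendritic cell and neutrophil markers and some mast cell markers were called lower in AhR-deficient BMDMs too. Any gene called lower shares their sign and any gene called higher does not, so this match of signs holds by definition. Whether the genes and the markers varied together between libraries was not tested. The comparisons share libraries and are not independent of each other. Because the 10 genes were chosen with earlier results of these data known, their counts beside the shares of all genes are a description and no test of enrichment.

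**Figure D1:**
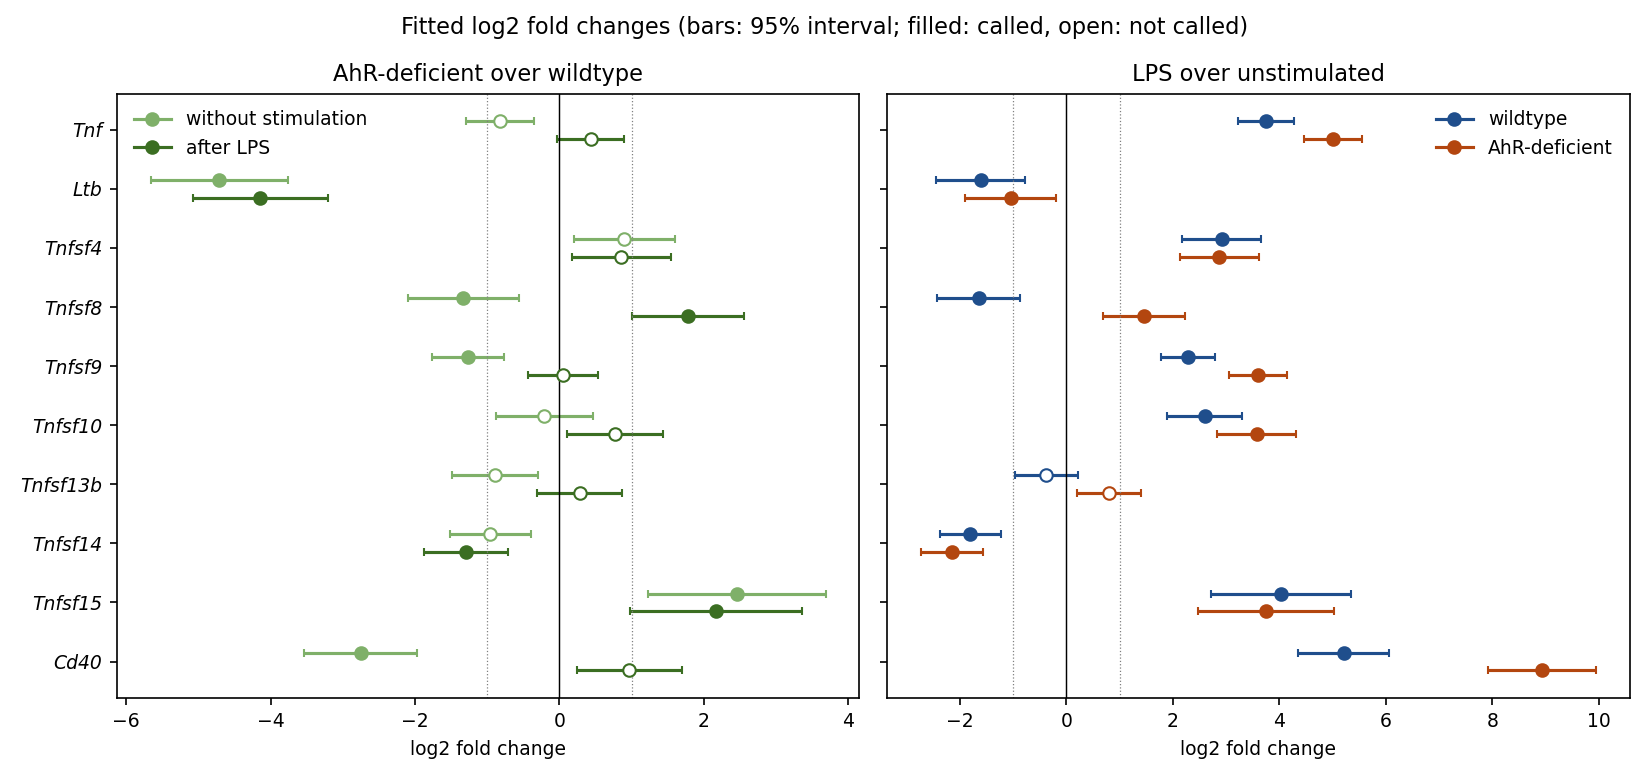
Fitted log2 fold changes of the 10 genes, AhR-deficient over wildtype (left, without stimulation and after LPS) and LPS over unstimulated (right, wildtype and AhR-deficient), with 95% intervals. Filled points were called, open points were not, and dotted lines mark a fold change of 2. Ltb lies at -4.71 and -4.14 on the left and Cd40 at 5.21 and 8.93 on the right.

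**Figure D2:**
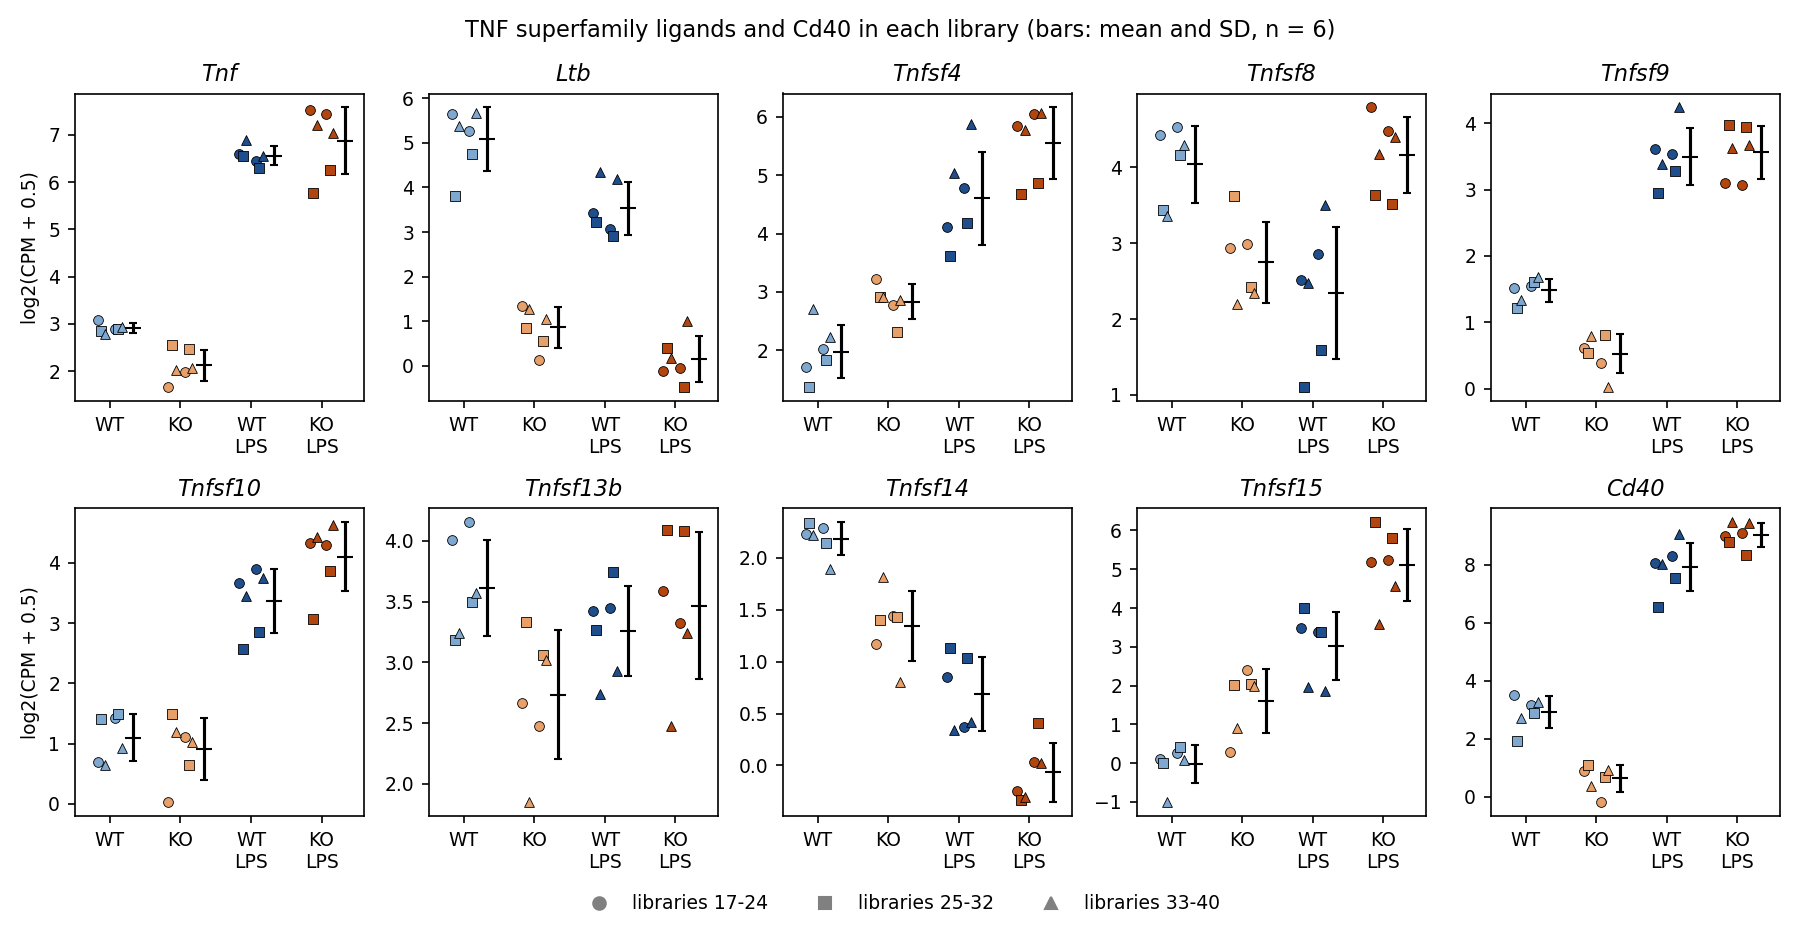
Level of each gene in each of the 24 libraries as log2(CPM + 0.5), with the mean and SD of the 6 libraries of a group beside them and the run of library numbers as the symbol. The AhR-deficient libraries of Ltb lie under all wildtype libraries in both states, and those of Tnfsf8 lie mostly under wildtype without stimulation and over all of wildtype after LPS.

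Tnf, the founding cytokine of the family, was induced in both genotypes, and more in AhR-deficient BMDMs, which started from a lower level. Without stimulation it lay between 6.42 and 8.01 CPM in wildtype (median 6.97) and between 2.67 and 5.34 CPM in AhR-deficient libraries (median 3.63). The groups did not overlap, and the log2 fold change was -0.83 ± 0.23 (SE, adjusted p = 0.027), short of a fold change of 2. After LPS Tnf rose to between 78.3 and 119 CPM in wildtype (median 93.5) and to between 54.3 and 183 CPM in AhR-deficient BMDMs (median 139). Of the 6 AhR-deficient libraries, 4 lay above every wildtype library and 2, libraries 31 and 32, lay below every wildtype library. The difference by genotype after LPS was 0.43 (95% interval -0.03 to 0.90, adjusted p = 0.26). LPS raised Tnf 13.4-fold in wildtype (log2 3.75 ± 0.25, adjusted p = 4.4e-11) and 32.2-fold in AhR-deficient BMDMs (log2 5.01 ± 0.27, adjusted p = 4.4e-13). The log2 changes differed by 1.26 ± 0.32 (adjusted p = 0.023 for the interaction), with 2.12, -0.04 and 1.21 in the runs of libraries 17 to 24, 25 to 32 and 33 to 40. The call was lost when libraries were scaled to total counts (adjusted p = 0.062) and with limma-voom (adjusted p = 0.11).

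Ltb, the neighbour of Tnf with the kappaB match in its window, was the gene of the 10 most reduced in AhR-deficient BMDMs and fell with LPS. Without stimulation it lay between 13.4 and 50.1 CPM in wildtype (median 39.6) and between 0.590 and 2.04 CPM in AhR-deficient BMDMs (median 1.42). After LPS the values were 7.06 to 19.9 CPM (median 9.58) and 0.216 to 1.51 CPM (median 0.542). The genotypes did not overlap in either state, and the highest AhR-deficient library was under the lowest wildtype library by more than the whole AhR-deficient range in both. Ltb was 26.2-fold lower in AhR-deficient BMDMs without stimulation (log2 -4.71 ± 0.46, adjusted p = 3.4e-07) and 17.7-fold lower after LPS (log2 -4.14 ± 0.45, adjusted p = 9.5e-07). In wildtype 3 of the 6 neutrophil markers tested were lower with LPS, and of the 8 dendritic cell markers 4 were higher and 2 lower. Of the 5 mast cell markers 3 were higher. LPS lowered Ltb in wildtype (log2 -1.61 ± 0.40, adjusted p = 0.0026). In AhR-deficient BMDMs the change of -1.04 ± 0.41 just passed (adjusted p = 0.043), and it no longer passed when any 1 of 9 libraries was left out (unstimulated 19, 27, 35 and 36, LPS-stimulated 23, 24, 31, 32 and 39), with values from -0.85 to -1.09 and adjusted p from 0.054 to 0.099. It was also lost with DESeq2 size factors (-1.01, adjusted p = 0.052), with no filter on low counts (-1.05, adjusted p = 0.055), with only the 12 libraries compared (-1.07, adjusted p = 0.066) and with limma-voom (-1.16, adjusted p = 0.15). The dendritic cell and neutrophil markers were lower in the same AhR-deficient groups, by a median log2 of -5.06 and -3.40 without stimulation and of -3.44 and -2.87 after LPS. Of these neighbours on chromosome 17, Ltb fell with LPS while Tnf and Lta rose. The log2 changes of Ltb, Tnf and Lta were -1.61, 3.75 and 2.78 in wildtype and -1.04, 5.01 and 4.33 in AhR-deficient BMDMs.

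Cd40 was near 1 CPM in unstimulated AhR-deficient BMDMs and had the largest rise with LPS of the 10 genes in both genotypes. Without stimulation it lay between 3.30 and 10.8 CPM in wildtype (median 7.67) and between 0.378 and 1.62 CPM in AhR-deficient libraries (median 1.22), with no overlap. It was 6.72-fold lower in AhR-deficient BMDMs (log2 -2.75 ± 0.38, adjusted p = 2.9e-05). After LPS the range was 91.9 to 532 CPM in wildtype (median 262) and 324 to 708 CPM in AhR-deficient BMDMs (median 533). Here the ranges overlapped, and 3 of the 6 AhR-deficient libraries lay above the highest wildtype library, library 38. The difference after LPS was 0.97 ± 0.35 (adjusted p = 0.074), and it was called without library 38 (1.27, adjusted p = 0.016), with the run as a factor (1.02, adjusted p = 0.026) and with limma-voom (1.11, adjusted p = 0.015). LPS raised Cd40 37.0-fold in wildtype (log2 5.21 ± 0.42) and 487-fold in AhR-deficient BMDMs (log2 8.93 ± 0.49), with adjusted p of 7.2e-10 and 7.9e-13. The interaction was the largest of the 10 genes, 3.72 ± 0.51 (adjusted p = 1.1e-04), with 3.86, 3.04 and 3.27 in the 3 runs. Its ligand gene Cd40lg, a gene of activated T cells, had a mean of at most 0.0022 CPM in every group.

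Tnfsf8, which encodes CD30L, turned from lower to higher in AhR-deficient BMDMs with stimulation. It lay between 9.81 and 22.6 CPM in unstimulated wildtype (median 18.4) and between 4.09 and 11.8 CPM in unstimulated AhR-deficient BMDMs (median 6.00). After LPS it was between 1.65 and 10.8 CPM in wildtype (median 5.15) and between 10.97 and 27.2 CPM in AhR-deficient BMDMs (median 19.1). The groups overlapped without stimulation through the AhR-deficient library 27 alone, and did not overlap after LPS. The log2 fold change by genotype was -1.33 ± 0.37 without stimulation (adjusted p = 0.030) and 1.78 ± 0.38 after LPS (adjusted p = 0.0019). The first of these calls was lost when any 1 of 8 libraries was left out (wildtype 17, 18, 26 and 34, AhR-deficient 20, 28, 35 and 36), with values from -1.22 to -1.37 and adjusted p from 0.052 to 0.077. LPS lowered Tnfsf8 in wildtype (log2 -1.65 ± 0.38, adjusted p = 0.0011) and raised it in cells without AhR (log2 1.46 ± 0.37, adjusted p = 0.0024). With libraries scaled to total counts the second change was 0.99 and under a fold change of 2. The interaction was 3.11 ± 0.53 (adjusted p = 9.7e-04), with 3.47, 3.01 and 2.86 in the 3 runs. The AhR core motif of its window is a match of letters, and binding was not measured here.

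Tnfsf9, which encodes CD137L, was lower in AhR-deficient BMDMs without stimulation, while the genotypes overlapped after LPS. It lay between 1.83 and 2.72 CPM in unstimulated wildtype (median 2.39) and between 0.515 and 1.26 CPM in unstimulated AhR-deficient BMDMs (median 0.986), with no overlap. The log2 fold change was -1.26 ± 0.24 (adjusted p = 0.0012). After LPS the range was 7.23 to 18.4 CPM (median 10.5) in wildtype, and that of 7.88 to 15.2 CPM (median 12.03) in AhR-deficient BMDMs lay within it, with a log2 difference of 0.05 (95% interval -0.43 to 0.54). The highest AhR-deficient libraries after LPS were 31 and 32, the same libraries that were lowest for Tnf. LPS raised Tnfsf9 4.87-fold in wildtype (log2 2.28 ± 0.25, adjusted p = 8.1e-08) and 12.1-fold in AhR-deficient BMDMs (log2 3.599 ± 0.26, adjusted p = 6.9e-11), a difference in response of 1.32 ± 0.33 (adjusted p = 0.023). A gene of the opposite strand, Gm11110, overlaps Tnfsf9 and had 5194 counts over the 24 libraries beside 8356 of Tnfsf9, and counting was stranded.

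Tnfsf14, which encodes LIGHT, was lower in AhR-deficient BMDMs and lower after LPS in both genotypes. Its range was 3.20 to 4.54 CPM in unstimulated wildtype (median 4.18) and 1.24 to 3.02 CPM in unstimulated AhR-deficient BMDMs (median 2.17). After LPS it was 0.768 to 1.70 CPM (median 1.07) and 0.295 to 0.830 CPM (median 0.430). The genotypes did not overlap without stimulation, and after LPS 5 of the 6 AhR-deficient libraries were below the lowest wildtype library. The log2 fold change was -0.96 ± 0.27 without stimulation (adjusted p = 0.032, less than 2-fold) and -1.29 ± 0.28 after LPS (adjusted p = 0.0023). Without library 34 or 35 the first value was -1.02 or -1.09 and was called, as it was at -1.05 with libraries scaled to total counts. LPS lowered Tnfsf14 3.51-fold in wildtype (log2 -1.81 ± 0.28, adjusted p = 1.2e-05) and 4.43-fold in AhR-deficient BMDMs (log2 -2.15 ± 0.28, adjusted p = 1.2e-06), with an interaction of -0.34 (95% interval -1.13 to 0.45).

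Tnfsf15, which encodes TL1A, was the one gene of the 10 called higher in AhR-deficient BMDMs in both states. In unstimulated wildtype it lay between 0 and 0.826 CPM (median 0.566), with no count in library 33, which allows up to 0.0681 CPM there. In unstimulated AhR-deficient BMDMs it lay between 0.725 and 4.82 CPM (median 3.52). After LPS it was between 3.16 and 15.6 CPM in wildtype (median 9.89) and between 11.5 and 73.4 CPM in AhR-deficient BMDMs (median 36.7). The pooled ranges overlapped in both states through 1 AhR-deficient library each, library 19 and library 39, but within every run both AhR-deficient libraries were above both wildtype libraries in both states. After LPS the highest library of each genotype was in the run 25 to 32 and the 2 lowest in the run 33 to 40. Tnfsf15 was 5.49-fold higher in AhR-deficient BMDMs without stimulation (log2 2.46 ± 0.60, adjusted p = 0.011) and 4.50-fold higher after LPS (log2 2.17 ± 0.58, adjusted p = 0.013). With limma-voom the adjusted p of the first was 0.075. LPS raised it by 4.03 ± 0.63 and 3.75 ± 0.62 on the log2 scale in wildtype and AhR-deficient BMDMs (adjusted p = 1.7e-05 and 2.4e-05), with an interaction of -0.29 (95% interval -1.91 to 1.33). Its neighbour Tnfsf8 had the opposite sign by genotype without stimulation and the same sign after LPS.

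Tnfsf4, which encodes OX40L, was induced in both genotypes, and its response to LPS gave no called difference between them. It lay between 2.09 and 6.04 CPM (median 3.32) in unstimulated wildtype and between 4.47 and 8.84 CPM (median 6.89) in unstimulated AhR-deficient BMDMs, and 5 of the 6 AhR-deficient libraries were above the highest wildtype library. After LPS it lay between 11.8 and 58.4 CPM (median 22.4) and between 25.2 and 66.6 CPM (median 55.6), with the wildtype library 38 far above the other wildtype libraries and among the AhR-deficient ones. The differences by genotype were 0.90 ± 0.34 (adjusted p = 0.15) and 0.86 ± 0.33 (adjusted p = 0.10) and were not called, while without library 38 the second was 1.23 (adjusted p = 0.0084). LPS raised Tnfsf4 7.55-fold in wildtype (log2 2.92 ± 0.36, adjusted p = 5.7e-07) and 7.34-fold in AhR-deficient BMDMs (log2 2.88 ± 0.36, adjusted p = 4.4e-07), with an interaction of -0.04 (95% interval -1.01 to 0.93).

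Tnfsf10, which encodes TRAIL, and Tnfsf13b, which encodes BAFF, gave no called difference by genotype. Tnfsf10 lay between 1.07 and 2.32 CPM (median 1.78) and between 0.521 and 2.30 CPM (median 1.60) without stimulation and between 5.47 and 14.5 CPM (median 11.3) and 7.87 and 24.4 CPM (median 19.4) after LPS, in wildtype and AhR-deficient BMDMs in turn, and the genotypes overlapped in both states. LPS raised it 6.05-fold in wildtype (log2 2.60 ± 0.34, adjusted p = 1.7e-06) and 11.9-fold in AhR-deficient BMDMs (log2 3.58 ± 0.36, adjusted p = 1.6e-08). The difference of these responses, 0.98 ± 0.46, did not pass (adjusted p = 0.35). Tnfsf13b was the one gene of the 10 with no called change in any comparison. Its levels were 8.58 to 17.3 CPM (median 11.1) and 3.11 to 9.60 CPM (median 6.72) without stimulation, with 5 of the 6 AhR-deficient libraries below the lowest wildtype library, and 6.17 to 12.9 CPM (median 9.68) and 5.06 to 16.5 CPM (median 10.5) after LPS. The log2 difference by genotype was -0.89 ± 0.29 without stimulation (adjusted p = 0.071) and 0.28 ± 0.29 after LPS (adjusted p = 0.70). Without library 27 the first was -1.04 with an adjusted p of 0.041. Its change with LPS was -0.38 ± 0.29 in wildtype (adjusted p = 0.33) and 0.80 ± 0.29 in AhR-deficient BMDMs (adjusted p = 0.026). The latter was 1.74-fold, short of a fold change of 2. The interaction, 1.18 ± 0.40 (adjusted p = 0.12), passed with the run as a factor (1.18, adjusted p = 0.033) or with each library's slope on gene length as a covariate (1.27, adjusted p = 0.0064).

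Levels between genes were compared per kilobase of merged exon, as CPM per kb. Ltb led in unstimulated wildtype with 24.0 ± 9.40 CPM per kb (SD, n = 6), and no other gene overlapped its range of 8.85 to 33.1. Tnfsf8 and Tnf followed at 4.40 ± 1.43 and 4.29 ± 0.33, and Tnfsf10 and Tnfsf15 were lowest at 0.324 ± 0.109 and 0.158 ± 0.085. In unstimulated AhR-deficient BMDMs Tnfsf4 was first at 3.67 ± 0.76 and Tnf next at 2.41 ± 0.62, while Ltb was sixth in the order at 0.919 ± 0.366. After LPS Cd40 was first in both genotypes, with 81.1 ± 43.4 CPM per kb in wildtype and 159 ± 43.9 in AhR-deficient BMDMs, and Tnf next with 57.7 ± 8.22 and 77.8 ± 31.8. Tnfsf14 was last in both, with 0.626 ± 0.224 and 0.254 ± 0.110. Of the 9 pairs of neighbours in this order, the ranges overlapped in 6 (wildtype) and 9 (AhR-deficient) before LPS and in 7 and 9 after it, so that most adjacent ranks do not differ beyond their spread. In wildtype the ranges were apart between Ltb and Tnfsf8, Tnf and Tnfsf14, and Tnfsf13b and Tnfsf10 without stimulation, and between Tnf and Tnfsf4 and between Ltb and Tnfsf15 after LPS.

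**Figure D3:**
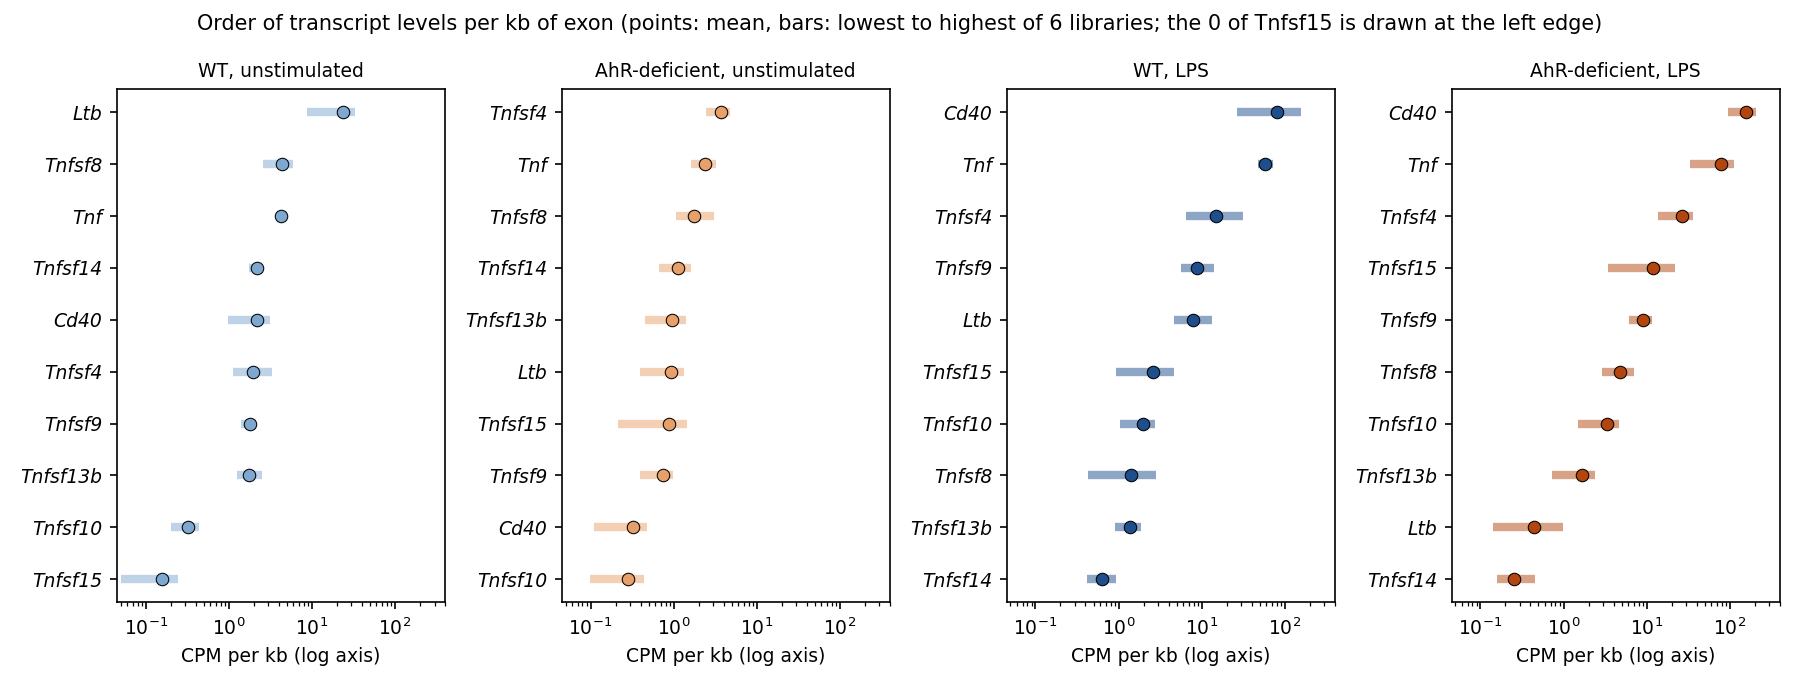
Mean level per kilobase of merged exon (points) and the range of the 6 libraries (bars) of the 10 genes in each group, on a log axis and in the order of the mean. Ltb leads in unstimulated wildtype at 24.0 CPM per kb, and Cd40 leads after LPS at 81.1 and 159 CPM per kb.

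Of the 9 other ligand genes of the family, 4 passed the filter on low counts: Lta, Cd70, Tnfsf12 and Tnfsf13. All 4 changed with LPS in both genotypes, where 24.9% and 30.8% of all tested genes did. Lta, the partner of Ltb, was 0.570 ± 0.25 CPM in unstimulated wildtype and 0.306 ± 0.17 CPM in unstimulated AhR-deficient BMDMs (SD, n = 6), and rose with LPS by 2.78 ± 0.36 and 4.33 ± 0.39 on the log2 scale (SE, adjusted p = 1.3e-06 and 2.8e-09), to 3.93 ± 0.63 and 6.24 ± 2.29 CPM. The difference of these rises, 1.55 ± 0.49, was not called (adjusted p = 0.078, and from 0.016 to 0.16 over the alternatives), nor were the differences of Lta by genotype, -0.88 and 0.67. Tnfsf12 (TWEAK) fell by 1.21 and 1.52 and Tnfsf13 (APRIL, which shares receptors with BAFF) fell by 2.30 and 2.81 on the log2 scale. Cd70, the ligand of Cd27, had 23 counts over the 6 unstimulated wildtype libraries and none over the unstimulated AhR-deficient libraries, a level at least 7.33-fold lower, counted against the floor of 3 counts over the group. After LPS it was 7.97 ± 7.60 CPM in wildtype and 0.702 ± 0.393 CPM in AhR-deficient BMDMs, a log2 difference of -3.50 ± 0.72 (adjusted p = 0.0026), and the rise in AhR-deficient BMDMs was at least 92.4-fold. The call of Cd70 without stimulation (adjusted p = 0.046) was lost in 22 of 33 alternatives. The means of Cd40lg, Fasl, Tnfsf11, Tnfsf18 and Eda were at most 0.408 CPM in any group and these genes were not tested.

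Among 27 receptor genes of the family, 20 were tested. The receptors of TNF, Tnfrsf1a and Tnfrsf1b, had log2 differences of 0.16 and 0.41 without stimulation and 0.37 and 0.23 after LPS, and Ltbr had 0.23 and 0.12. Tnfrsf8 (CD30), the receptor for the product of Tnfsf8, was 7.49 ± 1.57 CPM and 13.6 ± 1.28 CPM without stimulation and 10.5 ± 1.33 and 18.4 ± 1.04 CPM after LPS (SD, n = 6), with log2 differences of 0.86 and 0.81 (adjusted p = 1.4e-04 and 1.7e-04) that stayed under 2-fold. Tnfrsf4 (OX40), the receptor for the product of Tnfsf4, was called lower in AhR-deficient BMDMs in both states, at 0.0737 against 1.48 CPM without stimulation (log2 -4.27 ± 0.89) and at 0.212 against 17.2 CPM after LPS (log2 -6.31 ± 0.93). Tnfrsf9 (CD137), the receptor for the product of Tnfsf9, rose most with LPS, from 29.4 to 718 CPM in wildtype (log2 4.61 ± 0.45) and from 12.3 to 550 CPM in AhR-deficient BMDMs (log2 5.48 ± 0.46). Tnfrsf14, a receptor of LIGHT, rose by 1.64 and 2.00 on the log2 scale. Tnfrsf13b, a receptor of BAFF, had differences by genotype of -0.25 and 0.17, and Tnfrsf10b, the receptor of TRAIL, of -0.04 and -0.22. Tnfrsf13c, Tnfrsf17 and Tnfrsf25, the receptors that complete the BAFF and TL1A pairs, had means of at most 0.243 CPM and were not tested. Over the 20 receptors, 1 was lower without stimulation, and 1 (Eda2r, 1.51) was higher and 3 (Tnfrsf4, Tnfrsf18 at -3.77, Tnfrsf21 at -1.15) were lower after LPS. The shares of all genes called by genotype were 4.48% and 8.36%, so that the count of 1 of 20 without stimulation is near that of all genes. LPS raised 10 in wildtype (13.2% of all genes), and raised 10 (15.1%) and lowered Tnfrsf21 and Tnfrsf18 (15.7%) in AhR-deficient BMDMs, and the medians of the 20 log2 changes were 1.25 and 1.11. The interaction passed for 1 of the 20 (4.30% of all genes), Tnfrsf18 (-2.63, adjusted p = 0.029), with the more negative change in AhR-deficient BMDMs, and was lost without library 26, 35 or 38 (adjusted p up to 0.056).

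Adaptors and NF-kB genes, which carry the signal of these receptors, were all measured (25 of 25 tested). LPS raised 16 in wildtype (13.2% of all genes), and raised 14 (15.1%) and lowered 1, Traf4 (15.7%), in AhR-deficient BMDMs. By genotype 1 was called without stimulation and 3 after LPS, near the shares of 4.48% and 8.36% of all genes. Traf1, an adaptor that is itself a target of NF-kB, rose most, from 4.96 to 268 CPM in wildtype (log2 5.75 ± 0.36) and from 2.83 to 304 CPM in AhR-deficient BMDMs (log2 6.74 ± 0.38). Tnfaip3, an inhibitor of NF-kB, rose by 3.45 and 3.51, Nfkb2 by 3.02 and 2.99 and Map3k14, the kinase of the noncanonical arm, by 3.93 and 2.89. By genotype, Traf4 was lower in AhR-deficient BMDMs, at 3.74 ± 0.43 against 16.9 ± 4.65 CPM without stimulation (log2 -2.18 ± 0.28, adjusted p = 1.1e-05) and 1.83 ± 0.87 against 29.9 ± 10.1 CPM after LPS (log2 -4.03 ± 0.30, adjusted p = 3.3e-09). After LPS Birc2 (-1.26 ± 0.25, adjusted p = 0.0011) and Relb (-1.06 ± 0.21, adjusted p = 9.2e-04) were lower too, and both fell under 2-fold without the wildtype library 38, and Relb also without library 21 or 22 and with limma-voom. The interaction passed for Traf4 (-1.85), Relb (-1.05) and Traf5 (-0.94), 3 of 25 where 4.30% of all genes passed, and that of Relb was lost in 20 of 32 alternatives. Median log2 differences by genotype over the 25 genes were 0.01 and 0.07.

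**Figure D4:**
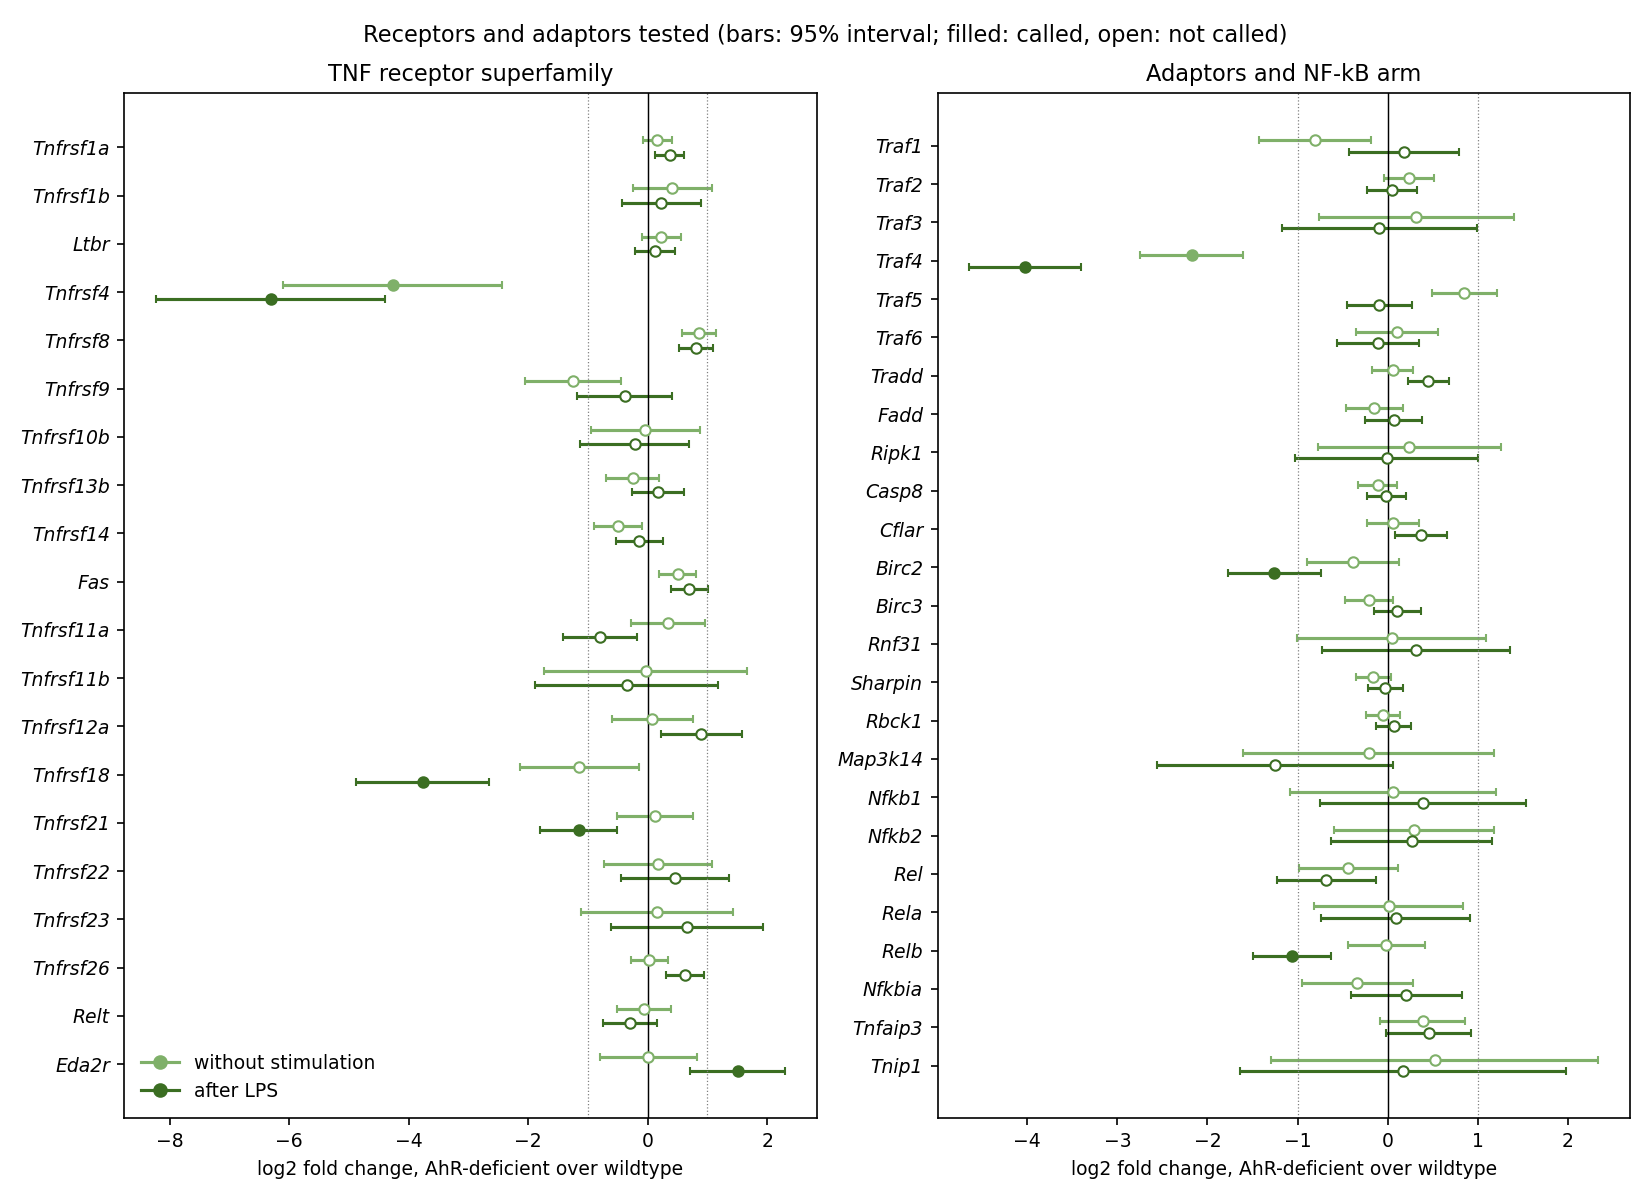
Log2 fold changes, AhR-deficient over wildtype, with 95% intervals for the 20 receptors tested (left) and the 25 adaptors and NF-kB genes (right), without stimulation and after LPS; filled points were called. Of the 20 receptors 1 and 4 were called and of the 25 adaptors 1 and 3, beside 4.48% and 8.36% of all genes, and Tnfrsf4 (-4.27 and -6.31) and Traf4 (-2.18 and -4.03) lie apart on the lower side in both states.

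Of 6 genes for the release of TNF from the membrane (Adam17, Rhbdf2) and the decay of its mRNA (Zfp36, Zfp36l1, Rc3h1, Zc3h12a), none was called by genotype (4.48% and 8.36% of all genes were), with log2 differences from -1.26 to 0.66 without stimulation and from -0.67 to 0.56 after LPS. At an unadjusted p under 0.05 edgeR gave 1 of the 6 without stimulation (Zfp36l1) and 0 after LPS, and DESeq2 and limma-voom called 0 of the 6 in both. LPS raised Zc3h12a, Zfp36l1 and Zfp36 in both genotypes (13.2% and 15.1% of all genes rose), by 4.13, 1.62 and 1.28 in wildtype and by 4.35, 2.22 and 1.86 in AhR-deficient BMDMs on the log2 scale. The change of Adam17, the sheddase of TNF, was 0.58 and 0.05 and did not pass.

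The genes whose pattern over the 24 libraries was most like that of each of the 10 were found by the root mean square difference of log2(CPM + 0.5), each gene centred on its mean. For Tnf they were Herc6 (0.49) and Ddx60 (0.50), where Tnf itself varied by 2.15 around its mean, and for Cd40 they were Ifi44 (0.58) and Slfn1 (0.61), where Cd40 varied by 3.51. Tspan2 (0.59) and Acot6 (0.68) were nearest to Ltb, which varied by 2.06. Cyp26b1 (0.46) and Rasgrp1 (0.60) were nearest to Tnfsf15, which varied by 2.02. For Tnfsf8 the nearest were Spp1 (0.68) and Chchd6 (0.70), beside a variation of 0.97 of Tnfsf8 itself, and for Tnfsf13b they were Gm9856 (0.37) and Kif9 (0.38), beside a variation of 0.55, so that neither gene had a close match relative to its own variation. The nearest were Gm36161 and Mfsd7a to Tnfsf4, Ncf4 and Cdkn1a to Tnfsf9, Gm7592 and A530032D15Rik to Tnfsf10, and Fam117a and Mbnl3 to Tnfsf14, at differences from 0.32 to 0.40, where these genes varied by 0.872 to 1.503. Likeness here rests on shared libraries and is a description.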

How the data were processed

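RNA of 24 BMDM cultures was sequenced as stranded polyA libraries. The authors aligned read pairs to mm10 with GSNAP and deposited counts of uniquely aligned fragments per gene (featureCounts 2.0.1, Ensembl release 98, reverse-stranded), without normalization. The 92 spike-in rows held 1 count and were left out. One edgeR 4.0.16 model (R 4.3.3) held all 24 libraries, a term for each group and TMM scaling. The filterByExpr rule left 16593 genes, tested by robust quasi-likelihood, and p-values were adjusted by Benjamini-Hochberg over all of them. CPM values are TMM-scaled, ± is the SE of log2 fold changes and the SD of levels, and a floor is 3 counts and covers counting error only. Depth ran from 45106052 to 76992663 counts, and the biological coefficient of variation was 49.1%. p-values measure the spread between libraries. The alternatives were DESeq2 1.42.0 or its size factors, limma-voom (limma 3.58.1), total library size, other filters, only the 12 libraries compared, no minimum fold change, the run or the slope on gene length as a term, and each library left out. Members and lists were chosen with earlier results of these data known, and the text names all members, their ligand and receptor partners, up to 3 called genes per list and direction, and 2 similar genes per member. Lists and markers were written from general knowledge. The test was checked on simulated counts. Summaries used Python 3.11.15 with pandas 2.3.3, and plots matplotlib 3.10.9.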

Additional observations from a re-analysis of the deposited data

Results flagged for a closer look

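The change with LPS differed between wildtype and AhR-deficient BMDMs, by the interaction in edgeR's quasi-likelihood test, in 4 of the 10 genes. On the log2 scale the change in AhR-deficient BMDMs exceeded that in wildtype by 1.26 for Tnf (adjusted p = 0.023), 3.11 for Tnfsf8 (adjusted p = 9.7e-04), 1.32 for Tnfsf9 (adjusted p = 0.023) and 3.72 for Cd40 (adjusted p = 1.1e-04). Tnfsf8 changed in opposite directions, by -1.65 in wildtype and by 1.46 in AhR-deficient BMDMs, and the other 3 rose in both. All 4 were lower in AhR-deficient BMDMs without stimulation, with log2 differences of -0.83 for Tnf, -1.33 for Tnfsf8, -1.26 for Tnfsf9 and -2.75 for Cd40, and the difference of Tnf was under 2-fold. In none of the 40 groups of 6 libraries, 4 for each gene, did a single library stand apart by Dixon's criterion.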

How the results depend on the processing

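Over 50 results (10 genes in 5 comparisons), 31 were called, 26 of these kept their call in every alternative, 5 lost it in at least 1, 7 others gained a call, and no called value changed sign. The 5 were Tnf (interaction, lost with total library size and limma-voom), Ltb and Tnfsf8 (LPS in AhR-deficient BMDMs), and Tnfsf8 and Tnfsf15 (genotype without stimulation), and their values stand beside these results. The number of the 10 genes called ran from 4 to 6 in both genotype comparisons, was 9 for LPS in wildtype, ran from 8 to 9 for LPS in AhR-deficient BMDMs and was 4 for the interaction, when each library was left out in turn. Over the other alternatives it ran from 4 to 7, 4 to 5, 9 to 9, 8 to 10 and 3 to 5. Over all genes, the interaction gave 1125 calls with DESeq2, 1201 with the run as a factor and 2877 with the slope on gene length, against 713. Without a minimum fold change genotype after LPS gave 2096 calls against 1387, and LPS in wildtype 6305 against 4137. Scaling to total library size moved the median log2 change of all genes by 0.064 and 0.157 for genotype and by 0.252 and 0.330 for LPS toward lower values, and turned 360 higher and 1027 lower genes into 236 and 1351 (genotype after LPS), 2186 and 1951 into 1622 and 3163 (LPS in wildtype), 2504 and 2601 into 1730 and 4398 (LPS in AhR-deficient) and 324 and 389 into 252 and 550 (interaction). The slope on gene length gave 733 higher and 1299 lower for genotype after LPS. For genotype without stimulation it gave 262 higher and 833 lower genes against 152 and 592, and no minimum fold change gave 303 and 712. With no filter on low counts, 2.48% of 29741 genes were called in that comparison, against 4.48%. Under total library size the log2 difference of Tnfsf9 after LPS, not called, was -0.16. No pairing of cultures by animal was possible because the groups share no replicate numbers. The fit with the run as a factor compared libraries within runs only. Protein was not measured in these files, and low levels such as Tnfsf15 in unstimulated wildtype rest on at most 62 counts per library.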

Other observations

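Libraries 31 and 32, the AhR-deficient libraries after LPS of the run 25 to 32, were at an edge of their group for several of the genes, in both directions. Tnf was 54.3 and 76.4 CPM in them and at least 130 CPM in the other 4 libraries of the group, and Tnfsf4 was 25.2 and 28.7 CPM and at least 54.5 CPM in the others. Tnfsf9 was 15.2 and 14.9 CPM in them and at most 12.2 CPM in the others, and Tnfsf15 was 73.4 and 55.0 CPM and at most 37.4 CPM in the others. In wildtype after LPS, libraries 29 and 30 of the same run were lowest for Cd40 (91.9 and 189 CPM) and Tnfsf8 (1.65 and 2.52 CPM). The slope of log2 CPM on log2 gene length was 0.659 and 0.672 in libraries 31 and 32 and 0.2388 to 0.5004 in the others of their group. Over the whole run 25 to 32 it lay between 0.623 (library 27) and 0.741 (library 30), in both genotypes and both states. Outside that run it was at most 0.573 (library 36). Whether the slope bears on these levels was not tested.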
